A study of Mus musculus with 2 samples.

Results

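T cells that pair the beta-chain V gene Trbv20 with the alpha-chain V gene Trav9-2 were followed in 2 droplet single-cell libraries of mouse lung CD4+ cells. A cell was counted where both genes had at least 1 UMI (a molecule tag; each counts 1 captured RNA molecule) and each was the highest Trbv or Trav gene of its cell, with ties kept. Cells also needed at least 500 genes, under 10% mitochondrial UMIs, at least 2 UMIs of Cd3d, Cd3e and Cd3g together and no Lyz2 UMI. Of 12537 barcodes and 9197 T cells by these limits, 117 were Trbv20/Trav9-2 cells, 16 from the control and 101 from the library labelled Cd4cre; they are called the paired cells below. The cells were chosen by these measured UMI counts of Trbv20 and Trav9-2, so the 2 V genes themselves are given below as a description.

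The control library is labelled Nfe2l2fl/fl, with loxP sites (fl) around the gene of the transcription factor NRF2. The other is labelled Cd4cre Nfe2l2fl/fl and adds a Cre recombinase driven by Cd4 regulatory sequences, so both groups carry the floxed gene. Mice were 8 to 15 weeks old, and 16 h passed between their final airway dose and collection of the lungs. The protocols list dosing with PAO and Ova, dosing with Der f 1 of house dust mite and a mixed bone marrow transfer, without saying which of these the libraries come from, nor the number of mice, their strain or sex, or the floxed exons. The stated aim was to screen for target pathways of NRF2 in helper cells.

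The libraries held 41391255 and 38744058 UMIs, and 4788 and 4409 cells passed the T cell limits, with medians of 6510.5 and 5666 UMIs. With 1 library per group no difference could be tested: every interval is a 95% interval for counting error only, and a difference between the libraries cannot be told apart from one between mice, airway models or handling. Nfe2l2, the gene to be deleted, had 31.9 CPM (the gene's UMIs summed over a group's cells and scaled to a common total) in control T cells outside the pair and 172 in those labelled Cd4cre. It goes against the label, although a count over the whole gene checks nothing where the deleted exons are not known, so that library is named by its label throughout. The libraries shared 49 barcodes, none of them a Trbv20/Trav9-2 cell.

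An alpha-beta T cell receptor is assembled in the thymus: a V segment is joined to a D and a J segment in the beta chain, and to a J segment in the alpha chain. All daughters of a T cell inherit its joints, so an expanded clone carries 1 beta and usually 1 expressed alpha rearrangement. Each beta rearrangement is spliced to constant gene Trbc1 or Trbc2, depending on the J segment it used. The V gene alone names a segment that many unrelated clones share. Helper T cells take on states such as Th1, Th2, Th17 or regulatory (Treg), each known by its factors and cytokines, and some CD4+ cells also carry granule genes of killer cells. The joints, which would define a clone, are not in gene counts.

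The V exons of the 2 segments are shown because their match to reads placed each cell in the group. They run 5′ to 3′ and come from the GENCODE annotation and transcripts of build GRCm38. Capitals mark the last in-frame TGT codon, which encodes the conserved cysteine, and all bases after it, where the joint begins.
Trbv20: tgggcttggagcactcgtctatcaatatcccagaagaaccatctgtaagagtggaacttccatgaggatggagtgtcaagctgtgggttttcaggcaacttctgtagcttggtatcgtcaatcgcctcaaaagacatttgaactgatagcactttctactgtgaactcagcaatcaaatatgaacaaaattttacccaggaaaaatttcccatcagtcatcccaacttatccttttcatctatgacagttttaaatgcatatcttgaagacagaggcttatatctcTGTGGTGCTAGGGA
Trav9-2: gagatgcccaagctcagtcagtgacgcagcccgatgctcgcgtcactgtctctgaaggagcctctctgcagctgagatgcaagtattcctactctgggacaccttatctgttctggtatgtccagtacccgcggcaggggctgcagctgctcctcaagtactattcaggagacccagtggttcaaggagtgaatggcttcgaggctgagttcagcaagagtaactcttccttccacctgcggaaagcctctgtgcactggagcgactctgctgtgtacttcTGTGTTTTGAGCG
The Trbv20 stretch is the last 300 of 304 bases of its V exon, chr6:41188678-41188977 on the plus strand, and Trbv20 is ENSMUSG00000076476. The Trav9-2 stretch is its whole V exon of 294 bases, chr14:53591221-53591514 on the plus strand, and Trav9-2 is ENSMUSG00000094966.

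The 2 segments differ in how well a read can be assigned to them. Trbv20 has no close copy: of 21 other Trbv genes, the most similar, Trbv30, matched 60.5% of the V exon, and the longest run of bases it shared with Trbv30 was 8. Trav9-2 lies in a duplicated region. Trav9-4, Trav9d-2, Trav9d-3, Trav9n-2 and Trav9n-3 each differ from it at 8 bases (97.3% identity) and Trav9n-4 at 9 bases (96.9%). The Trav9-2 call is therefore uncertain between near-identical copies. Trav9d-2, Trav9d-3 and Trav9n-2 had 0 UMIs in the T cells of both libraries, and no Trbv20/Trav9-2 cell had a UMI of another Trav9 gene.

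In the control library, Trbv20 counts in the 16 cells ran from 3 to 38 UMIs with a median of 11, and Trav9-2 counts from 1 to 10 with a median of 4. In the library labelled Cd4cre, the 101 cells had 1 to 21 Trbv20 UMIs (median 5) and 1 to 4 Trav9-2 UMIs (median 1). There, Trav9-2 rested on a single UMI in 62 cells, against 1 of 16 in the control library. Ties for the highest Trav gene were kept in 12 of the 101 cells and in 0 of the 16, and ties for the highest Trbv gene in 3 and 1. Just outside the rule, 11 and 3 T cells had both V genes with another one higher, and 2 and 1 cells with the pair failed the limits on quality, CD3 or Lyz2. As a measure of free RNA, cells with Lyz2 and no CD3 had a Trbv20 UMI in 1 of 1024 and 1 of 269 cells and Trav9-2 in 0 of both. Their median depth was 3140.5 and 2526 UMIs, against 5631 and 7734 in the Trbv20/Trav9-2 cells.

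The pair was the most frequent of 842 V gene pairs in the library labelled Cd4cre and ranked 39 of 880 in the control library. It took 2.29% of T cells there (1.87 to 2.78) and 0.334% in the control library (0.191 to 0.542). Among cells with both a Trbv and a Trav UMI these were 101 of 2955 and 16 of 3423, or 3.42% and 0.467%. The next pair in the library labelled Cd4cre, Trbv16/Trav5-4, had 41 cells. If Trbv20 and Trav9-2 had been paired independently, 13.2 cells would have been counted in the library labelled Cd4cre and 3.52 in the control library. The pair was thus seen 7.63 and 4.55 times as often. An excess was not particular to it: the 5 most frequent pairs of each library were all above this expectation. The others in the library labelled Cd4cre ran from 2.17 times to 8.89 times (Trbv15/Trav7-3, higher than Trbv20/Trav9-2). In the control library the 5 ran from 1.58 to 3.02 times. Of the Trbv20 cells with a Trav UMI, 41.1% had Trav9-2 in the library labelled Cd4cre and 11.4% in the control library. With both V genes at 2 UMIs or more, the pair held 0.862% of T cells in the library labelled Cd4cre. In the control library that limit leaves out 1 of the 16 cells, since Trbv20 had at least 3 UMIs in all of them. The libraries were thus closer at that limit than without it.

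**Figure D1:**
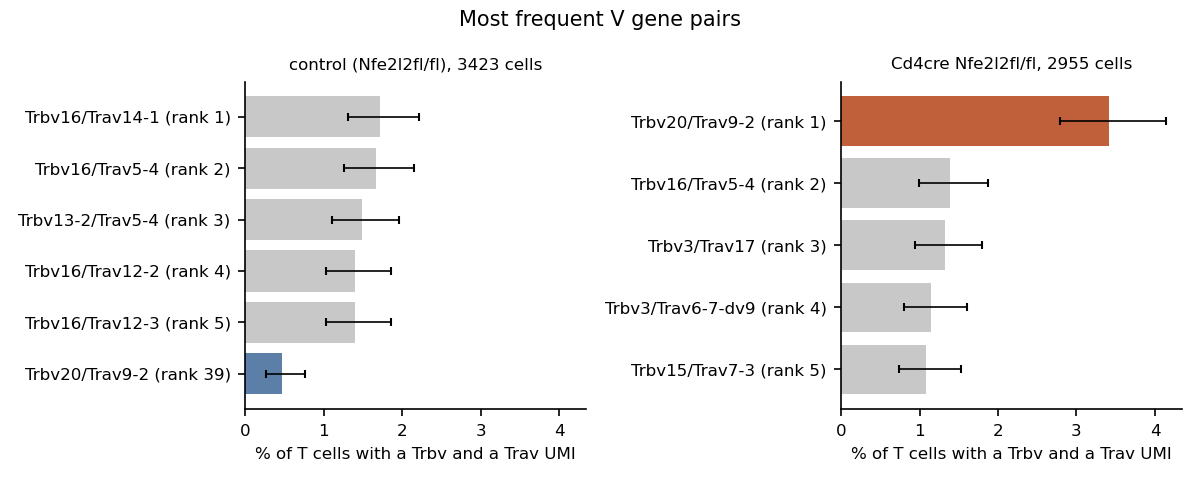
Percent of T cells with both a Trbv and a Trav UMI that carry a V gene pair (x axis, error bars are 95% exact binomial intervals), for the 5 most frequent pairs of each library and for Trbv20/Trav9-2 (coloured). The pair ranks first at 3.42% in the library labelled Cd4cre and 39 of 880 at 0.467% in the control library.

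The Trbv20 cells without any Trav UMI are a second group to keep in view, since their alpha chain was not captured. They numbered 150 in the library labelled Cd4cre and 41 in the control library. Trbv20 cells with another Trav and no Trav9-2 UMI numbered 142 and 122, and Trav9-2 cells with another Trbv 54 and 70. These groups serve below to hold 1 V gene constant. They were compared as cells of 1 library, which are not replicates of a condition.

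The state of the cells was read from clusters built without T cell receptor genes. The clustering used both libraries together. In the library labelled Cd4cre, 90 of the 101 paired cells (89.1%, 81.3 to 94.4) fell in the 2 clusters called Th1-like from Tbx21, Ifng, Ccl5 and Nkg7, genes of interferon-gamma-producing helper cells. Among the other T cells of that library the share was 12.3% (11.3 to 13.3). It was 72.7% (64.8 to 79.6) in Trbv20 cells without a Trav UMI, 18.3% (12.3 to 25.7) in Trbv20 cells with another Trav and 9.26% (3.08 to 20.3) in Trav9-2 cells with another Trbv. The interval of the paired cells overlapped that of none of these groups, but cells of 1 library are not replicates, so this is no test. The other 11 paired cells were 5 in the Th2-like cluster, 4 in the cycling-like one, 1 in a Treg-like and 1 in an interferon-responsive one.

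**Figure D2:**
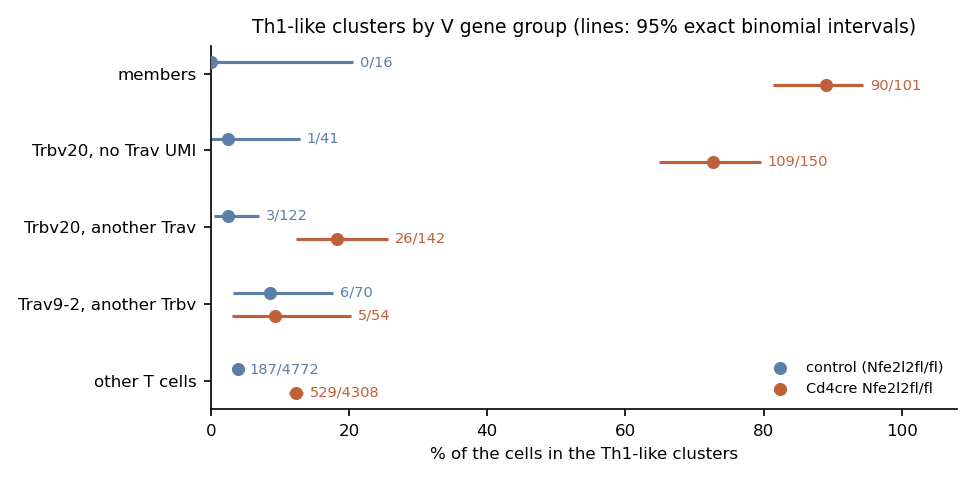
Percent of cells in the Th1-like clusters (x axis) by V gene group (y axis; members are the Trbv20/Trav9-2 cells) and library (colour); points are shares, lines 95% exact binomial intervals, and labels give cells in the clusters over cells in the group. In the library labelled Cd4cre 90 of 101 Trbv20/Trav9-2 cells and 109 of 150 Trbv20 cells without a Trav UMI lie there, and in the control library 0 of 16 and 1 of 41.

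The 2 Th1-like clusters split the paired cells of the library labelled Cd4cre. The first, led by Gzma, Ccl5, Ly6c2 and Klrd1, held 51 of them (50.5%), and the second, led by Gzmk, Ccl5, Ly6c2 and Ifng, held 39 (38.6%). The first cluster had 189 cells from the library labelled Cd4cre and 10 from the control library, so it may be that library, not a type. The second had 430 and 177. In the first, Klrg1, a receptor of differentiated effector cells, had a UMI in 33 of the 51 paired cells, and S1pr5, a sphingosine phosphate receptor used in egress, in 25. In the second, Klrg1 and S1pr5 had a UMI in none of the 39, and Cxcr3, a chemokine receptor of type 1 cells, in 28 of 39 against 13 of 51. These genes took part in the clustering, so the contrast describes the 2 groups and is no test. It was not particular to the paired cells, since cells of these clusters outside the Trbv20 groups showed it too. In the first cluster 81 such cells had Klrg1 in 71.6% (paired cells 64.7%) and S1pr5 at 144 CPM (paired cells 121). In the second, 313 such cells had Klrg1 in 6.39% and S1pr5 in 0.319%. Their Cxcr3 was at 48.1 CPM in the first cluster and 276 in the second. In the space of the clustering, 29.2% of the 15 nearest neighbours of a paired cell of the library labelled Cd4cre were paired cells and 25.3% were Trbv20 cells without a Trav UMI. Of these neighbours 93.0% were from the same library, where paired cells were 2.29% of T cells but 14.5% of Th1-like cells. In the first cluster, 51 of the 189 cells of that library were paired cells and 50 were Trbv20 cells without a Trav UMI. How much of the neighbour shares reflects cluster membership alone was not tested. In the control library 0.833% of the neighbours were paired cells, and 14 of the 16 cells had none, with 68.75% of neighbours from the same library, where paired cells were 0.334% of T cells.

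The constant genes of the beta chain were not used by the rule. The first exons of Trbc1 (chr6:41538218-41539881) and Trbc2 (chr6:41546730-41548352) differ at 1 of 375 bases, so most reads of that exon cannot tell them apart and both counts are low and uncertain. In the library labelled Cd4cre the 101 paired cells had 10 Trbc1 and 61 Trbc2 UMIs, and 53 cells had neither. Trbc1 was thus 14.1% of Trbc UMIs (6.97 to 24.4), and 21.7% (7.46 to 43.7) in the cells with both V genes at 2 UMIs or more, against 34.4% (33.4 to 35.3) in other T cells, 33.7% (28.1 to 39.6) in Trbv20 cells with another Trav and 31.3% (27.4 to 35.4) in Th1-like cells without Trbv20. In the control library Trbc1 gave 7 of 54 UMIs in the paired cells (13.0%, 5.37 to 24.9), against 33.9% in other T cells. By cell the control groups were alike: Trbc1 had a UMI in 6 of the 16 paired cells (37.5%, 15.2 to 64.6) and in 39.4% of other T cells. Of the 16, 1 had only Trbc1, 9 only Trbc2, 5 both and 1 neither. Trbj genes had 0 UMIs and Traj genes 1 UMI over all 117 paired cells, so the J segments were not read.

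The Trbc1 UMIs of the paired cells sat mostly outside the Th1-like clusters, a split that was made after the data were seen. The 90 Th1-like paired cells had 1 Trbc1 and 54 Trbc2 UMIs, a Trbc1 share of 1.82% (0.0460 to 9.72). The 11 paired cells in other clusters had 9 Trbc1 and 7 Trbc2 UMIs (56.2%, 29.9 to 80.2), and 3 of them had a Trbc1 UMI. Trbv20 cells without a Trav UMI showed the same order: 3 of 69 UMIs were Trbc1 inside the Th1-like clusters (4.35%, 0.906 to 12.2) and 22 of 60 outside (36.7%, 24.6 to 50.1). The Th1-like groups with Trbv20 and either Trav9-2 or no Trav UMI thus lay below Th1-like cells without Trbv20. The intervals count UMIs, which are not independent within a cell, so they are too narrow and are no test. By cell, 1 Th1-like paired cell had only Trbc1, 39 only Trbc2, 0 both and 50 neither. These counts were 2, 45, 1 and 61 in the 109 Th1-like Trbv20 cells without a Trav UMI. They were 40, 150, 55 and 102 in the 347 Th1-like cells without Trbv20. Trbv20 cells with another Trav in the Th1-like clusters, 26 in number, had 21.4% Trbc1 (8.30 to 41.0).

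A second Trbv or Trav gene was also counted in many paired cells, at a median of 1 UMI where seen. The segments below were picked after their values were seen. In the library labelled Cd4cre, Trbv12-2 (chr6:41118851-41119364), which lies upstream of Trbv20, had a UMI in 34 of 101 paired cells (33.7%, 24.6 to 43.8). Its share was 9.31% (8.46 to 10.2) in other T cells, 10.6% (6.03 to 16.8) in Trbv20 cells with another Trav and 8.65% (5.91 to 12.1) in Th1-like cells without Trbv20. In Trbv20 cells without a Trav UMI it was 27.5% (19.4 to 36.9) inside the Th1-like clusters and 9.76% (2.72 to 23.1) outside. Cells with Lyz2 and no CD3 had Trbv12-2 in 0 of 1024. Trbv12-2 shares 89.1% of its V exon with Trbv12-1, which had no UMI in the paired cells.

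Trbv13-2, also upstream, had a UMI in 21 of 101 paired cells (20.8%, 13.4 to 30.01), against 11.3% (6.58 to 17.7) of Trbv20 cells with another Trav and 18 of 150 Trbv20 cells without a Trav UMI (interval 7.27% to 18.3%). The share was 19.9% in other T cells, which include those with Trbv13-2 as their main beta gene. The alpha segment Trav13d-1 (chr14:52851290-52851866) had a UMI in 10 of 101 paired cells (9.90%, 4.85 to 17.5), all 10 in the Th1-like clusters, and in 0.650% of other T cells. It was also in 7 of the 26 Th1-like Trbv20 cells with another Trav, and in 0 of 150 Trbv20 cells without a Trav UMI, whose definition excludes it. Trav13d-1 differs from Trav13n-1 at 1 of 279 bases, so which of these copies was read is uncertain. In the control library the second segment was another one: Trbv29 (chr6:41271394-41271881) had a UMI in 9 of 16 paired cells, against 1 of 122 Trbv20 cells with another Trav and 126 of 4772 other T cells. Trbv29 had none in the 101 paired cells labelled Cd4cre, and Trbv12-2 had none in the 16 control cells.

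**Figure D3:**
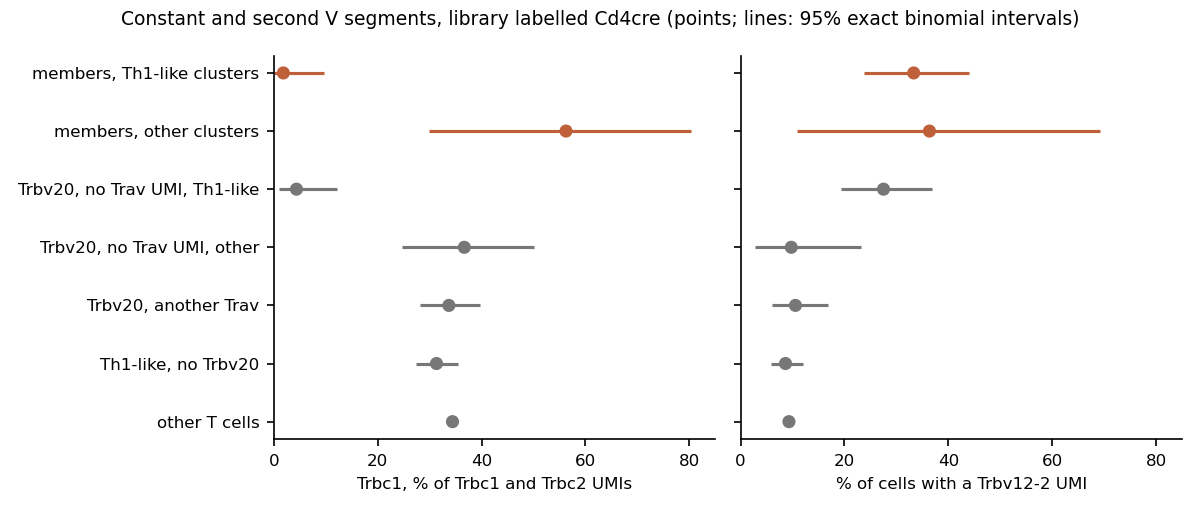
Left, Trbc1 UMIs as percent of Trbc1 and Trbc2 UMIs; right, percent of cells with a Trbv12-2 UMI (x axes), for cell groups of the library labelled Cd4cre (y axis; members are the Trbv20/Trav9-2 cells); points are shares and lines 95% exact binomial intervals. Trbc1 is at 1.82% in the paired cells of the Th1-like clusters and 34.4% in other T cells, and Trbv12-2 at 33.3% and 9.31%. The Trbc1 intervals count UMIs, which are not independent within a cell.

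Genes outside the receptor were compared with the other T cells of the library labelled Cd4cre, in CPM of summed UMIs. Of 2869 genes with at least 50 CPM in either group, 287 (10.0%) were at least 1.5-fold higher in paired cells and 314 (10.9%) at least 1.5-fold lower, with 10 CPM added to both. Fold changes below are ratios of CPM without that addition. Ccl5, a chemokine of memory and cytotoxic T cells, had 18541 CPM (18196 to 18891) against 1589, a log2 ratio of 3.54 (3.51 to 3.57). After thinning every cell to 2000 UMIs, Ccl5 had a UMI in 89.1% of paired cells (81.3 to 94.4) and 17.4% of other T cells (90.1% and 24.2% without thinning). The middle cell had 84 Ccl5 UMIs, the highest 401, and 10 of 101 cells had none. Ccl5 also had a UMI in 31.0% of thinned cells with Lyz2 and no CD3, whose 7 macrophage markers summed to 30838 CPM.

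Granule genes were next. Gzma, a granzyme protease of cytotoxic granules, had 2265 CPM against 201, a log2 ratio of 3.49 (3.41 to 3.58), with a UMI in 41 of 101 cells and up to 164 UMIs in 1 cell. Nkg7, a granule membrane protein, had 2379 CPM against 399 (log2 ratio 2.58, 2.50 to 2.66) and a UMI in 95 of 101. After thinning, Gzma had a UMI in 35.6% of paired cells, 4.66% of other T cells and 0.132% of cells with Lyz2 and no CD3, and Nkg7 in 88.1%, 27.1% and 0.528%. Serpinb9, an inhibitor that protects the cell from granzyme B, had 362 CPM against 22.4 (4.02, 3.79 to 4.24), and the related Serpinb6b 512 against 39.9 (3.68, 3.50 to 3.87). Serpinb9, Serpinb6b and Ly6c2 have close relatives in the genome, so their counts may be split between copies. Gzmb, the granzyme that Serpinb9 inhibits, had 389 CPM against 215, and Prf1, the pore-forming perforin, 16.8 against 2.61. By thinned UMIs, 26 of 101 cells had Gzma without Gzmk, 13 had Gzmk without Gzma, 10 had both and 52 had neither. In Th1-like cells without Trbv20 the corresponding counts were 56, 75, 36 and 168 of 335. Within the cluster led by Gzma, paired cells had 4274 CPM of Gzma, against 6818 in its 81 cells outside the Trbv20 groups. In the cluster led by Gzmk they had 49.2, against 412 in 313 such cells. Gzma was thus lower in paired cells within both clusters. Ccl5 had 25419 CPM against 33353 in the first cluster and 15679 against 9486 in the second.

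Ifng, the defining cytokine of Th1 cells, had 488 CPM against 79.2, a log2 ratio of 2.62 (2.44 to 2.80). Its thinned share was 40.6% against 9.77%, with 0.396% in cells with Lyz2 and no CD3 (66.3% of paired cells without thinning). Ccl5 and Ifng together were in 39 of 101 thinned paired cells (38.6%, 29.1 to 48.8), against 213 of 4206 other T cells. They were in 87 of 335 Th1-like cells without Trbv20 (26.0%, 21.4 to 31.0). In Trbv20 cells without a Trav UMI they were in 60 of 145 (41.4%, 33.3 to 49.8). The paired cell with the most Ifng held 47 UMIs, 16.2% of all Ifng UMIs of the 101 paired cells. Tbx21, which encodes the Th1 transcription factor T-bet, had 109 CPM against 28.7 (log2 ratio 1.93). Eomes, the related factor of CD8 and NK cells, had 0 UMIs. Ly6c2, a surface antigen of effector cells, had 323 CPM against 45.4 (2.83, 2.61 to 3.05), Slamf7 87.6 against 6.30 (3.80, 3.32 to 4.25) and Ifitm10 104 against 9.25 (3.50, 3.07 to 3.90). Dusp2, a phosphatase induced by receptor signals, had 1782 CPM against 307 (2.54, 2.45 to 2.63).

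Genes of migration and tissue residence differed in both directions. S1pr5 had 69.0 CPM against 4.09 (log2 ratio 4.08, 3.53 to 4.60) and Cx3cr1, a fractalkine receptor of circulating effector cells, 116 against 16.6 (2.81, 2.42 to 3.17). Itgb1, an integrin chain that binds matrix, had 876 CPM against 285 (1.62, 1.49 to 1.75). Itgae, the integrin of resident cells in epithelium, had 0 UMIs in paired cells against 72.3 CPM, at least 14.3-fold lower with 0 set to 3 UMIs. Cd69, which holds cells in tissue, had 256 CPM against 433 and Cxcr6, a chemokine receptor of lung T cells, 219 against 464. Klf2, which drives egress genes, had 354 against 288.

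Il17a, the Th17 cytokine, had 0 UMIs in the 101 cells against 712 CPM in other T cells, at least 141-fold lower, and Il4, a type 2 cytokine, 0 UMIs against 72.3 CPM, at least 14.3-fold lower. A count of 0 of 101 thinned cells allows, at 3 counts, a share of cells with a UMI at that depth of up to 2.97%, and cells with Lyz2 and no CD3 had Il17a in 0.528% after thinning. Il10, an anti-inflammatory cytokine, had 6.74 CPM against 205 (log2 ratio -4.93, -6.80 to -3.57), and Areg, an epithelial growth factor made by type 2 cells, 107.8 against 972 (-3.17, -3.55 to -2.82) with a UMI in 4 cells. Areg was at -5.24 where both V genes needed 2 UMIs. Il5, a type 2 cytokine that supports eosinophils, had 10.1 CPM against 93.2 (-3.21, -4.65 to -2.08). Il13, the type 2 cytokine of mucus production, had a UMI in 3 cells, and 1 of them held 44 of its 50 UMIs. Ramp1, a receptor subunit for the neuropeptide CGRP, had 18.5 CPM against 346 (-4.22, -5.23 to -3.38) and Igfbp7 11.8 against 261 (-4.47, -5.78 to -3.42). Tnfsf8, the CD30 ligand, had 10.1 against 243 (-4.59, -6.04 to -3.47). Lgals7 had 8.42 against 169, Cxcl3 6.74 against 156 and Ccr7, the lymph node homing receptor, 5.05 against 117 (-4.54, -6.82 to -2.99). Tff1 rested on 1 UMI (-5.86, -11.16 to -3.38).

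**Figure D4:**
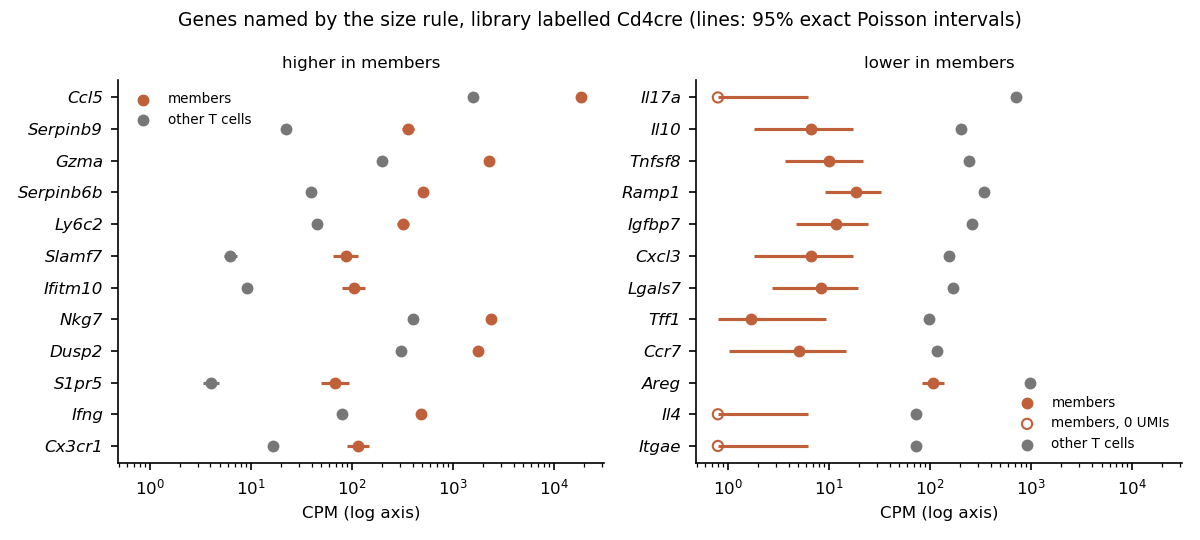
CPM on a log axis in the 101 Trbv20/Trav9-2 cells (members) and the 4308 other T cells of the library labelled Cd4cre, for the 12 genes furthest above (left) and below (right); lines are 95% exact Poisson intervals, and open circles mark 0 UMIs, drawn at the left edge. Ccl5 is at 18541 and 1589 CPM, and Il17a at 0 and 712.

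Gene lists were read in the same way over genes with at least 20 UMIs in paired and other T cells together, where 4.82% of 10725 genes were at least 1.5-fold higher and 9.97% at least 1.5-fold lower, with a median log2 ratio of -0.10 over all genes. This minimum sums both groups, and many list genes were known from earlier results, so the counts are a description. Of 20 type 1 and cytotoxic genes, 14 were higher and 1, Cxcr6, was lower, with a median of 1.09. Of 16 type 2 genes, 14 were lower and 0 higher (median -1.52). Il4 was among those at 0. Of 17 Th17 genes, 12 were lower and 1 higher (median -1.24, or -0.86 with genes at 0 set to 3 UMIs). Of 17 Treg genes, 14 were lower and 0 higher (median -1.88, or -1.61 with genes at 0 set to 3 UMIs). Foxp3, the Treg factor, had a UMI in 1 cell (6.74 CPM against 116), and Ctla4, a checkpoint receptor, had 340 CPM against 1055. Of 20 helper cytokine genes other than type 2, 12 were lower and 1 higher (median -0.78, or -0.57 with genes at 0 set to 3 UMIs). Follicular helper genes had 8 of 13 lower and 0 higher. Their factor Bcl6 had 3.37 CPM against 7.91 from 2 UMIs, and Pdcd1, the PD-1 receptor, had 116 CPM against 302.

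Of 25 activation and immediate early genes, 13 were lower and 4 higher: Jun had 90.9 CPM against 218, while Dusp2 and Nr4a2, feedback genes of receptor signals, were higher, Nr4a2 at 271 against 103. Of 27 interferon response genes, 12 were lower and 2 higher, with Ifi27l2a at 1704 CPM against 3312. Checkpoint and costimulatory genes had 10 of 19 lower and 2 higher. Tnfrsf4, the OX40 receptor, had 165 CPM against 962 and Lag3, an inhibitory receptor, 70.7 against 373. Of 17 survival genes, 4 were lower and 3 higher: Bcl2l11, the death-promoting BIM, had 115 CPM against 37.5, and Bcl2, its antagonist, 10.1 against 34.6. Il7r, the receptor chain for the survival cytokine IL-7, had 47.1 against 163 and Il2ra, the high-affinity IL-2 receptor chain, 32.0 against 229. Of 18 common gamma chain receptor genes, 6 were lower and 0 higher.

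Of 27 NRF2 target genes measured, 4 were lower and 0 higher, with a median of -0.09 (0.02 with genes at 0 set to 3 UMIs). Fth1, the ferritin heavy chain, had 2588 CPM against 3487 and Prdx1, a peroxide-removing enzyme, 278 against 421. Glycolysis had 3 of 18 lower and 1 higher, and Pkm, pyruvate kinase, had 421 against 693. T cell receptor signalling genes had 3 of 23 lower and 3 higher. The lower ones were Trbc1, Trbc2 and Sla, the Src-like adaptor, at 173 CPM against 306. Cell cycle genes had 4 of 28 lower and 2 higher, with a median of -0.07, which was 0.22 where both V genes needed 2 UMIs.

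**Figure D5:**
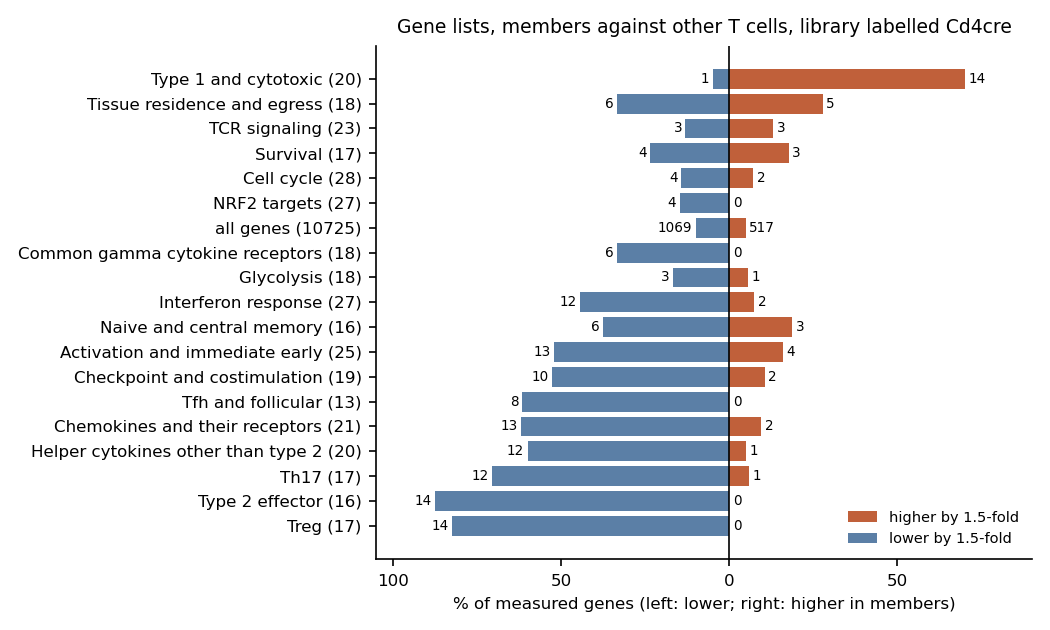
Percent of the measured genes of each list (number in parentheses) that were at least 1.5-fold higher (right) or lower (left) in Trbv20/Trav9-2 cells (members) than in other T cells of the library labelled Cd4cre; labels give gene counts, and all genes are shown as a row. Type 1 and cytotoxic genes have 14 of 20 higher, and type 2 and Treg genes 14 of 16 and 14 of 17 lower.

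Markers of other cell types were read as summed CPM in paired and other T cells. Cd4 had a UMI in 95 of the 101 paired cells labelled Cd4cre, Cd8a in 0 and Cd8b1 in 1. Of 6 markers of NKT, MAIT or gamma delta T cells 5 were at 0 (1.68 CPM in sum against 20.9 in other T cells), of 6 NK cell or ILC markers 4 were at 0 (23.6 against 46.1), and of 7 macrophage markers 4 were at 0 (96.0 against 191). B cell markers summed to 50.5 CPM against 145, dendritic cell markers to 11.8 against 12.2, endothelial markers to 23.6 against 38.8 and epithelial markers to 0 against 8.98. In the 16 control cells the NKT, MAIT or gamma delta markers and the dendritic cell markers were all at 0. Cd8b1 had a UMI in 4 of these 16 cells and Cd8a in 0, and both together had 28.7 CPM against 15.1 in other control T cells. B cell markers there summed to 115 CPM against 107, with 4 of 5 at 0, macrophage markers to 165 against 183, and NK cell or ILC markers to 7.17 against 25.6.

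To hold the beta V gene constant, the 101 paired cells were compared with the 142 Trbv20 cells with another Trav of the same library. Of 2831 genes with at least 50 CPM, 325 (11.5%) were at least 1.5-fold higher and 271 (9.57%) lower. With the Trbv20 cells that lack a Trav UMI added to the comparator, 167 were higher and 172 lower. The set of genes with at least 50 CPM changes with the comparator, so these counts cannot be set directly against the ones before. Ly6c2 had 323 CPM against 25.1 (log2 ratio 3.69, 3.08 to 4.35), Ccl5 18541 against 2228 (3.06, 2.99 to 3.12) and Gzma 2265 against 356 (2.67, 2.50 to 2.84). Klrd1, an NK receptor chain, had 84.2 against 6.03 (3.80, 2.58 to 5.32), from 50 and 6 UMIs. It had a UMI in only 12.9% of paired cells. Il17a, at 342 CPM in the Trbv20 cells with another Trav, was at least 67.7-fold lower. Ramp1 had 18.5 against 298 and Ccr7 5.05 against 170. Of 17 type 1 and cytotoxic genes 14 were higher and 1 lower, where 9.19% of 6138 genes were higher and 10.2% lower, and of 11 type 2 genes all 11 were lower.

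Within the Th1-like clusters the differences were fewer. The 90 paired cells there were compared with 347 Th1-like cells that had another Trbv gene and no Trbv20 UMI, a comparison added after the data were seen. Of 2715 genes, 103 (3.79%) were at least 1.5-fold higher and 89 (3.28%) lower. Perp, a membrane protein of junctions and of p53 responses, had 114 CPM against 18.5 (log2 ratio 2.62, 1.96 to 3.31) and a UMI in 44.4% against 5.76% of cells. Plek, a protein kinase C substrate, had 172 against 44.4 (1.95, 1.48 to 2.42), Serpinb9 405 against 120 (1.76, 1.47 to 2.05) and Serpinb6b 539 against 173 (1.64, 1.40 to 1.89). Xdh, xanthine dehydrogenase, had 65.9 against 23.4 (1.49, 0.77 to 2.20) and Cx3cr1 132 against 53.6 (1.30, 0.81 to 1.77). The groups filled the 2 Th1-like clusters differently: 51 of the 90 paired cells and 72 of the 347 others were in the Gzma-led one, 39 and 275 in the Gzmk-led one. In the Gzma-led cluster Cx3cr1 had 198 CPM against 182 (log2 ratio 0.12), and in the Gzmk-led one 34.4 against 15.2, from 7 and 19 UMIs. Perp had log2 ratios of 3.58 and 2.17 in the 2 clusters, Xdh 1.03 and 0.97, and Serpinb9 1.36 and 1.32. Plek had 0.97 and 2.01, and Serpinb6b 1.30 and 0.99. The Perp ratio of 3.58 rested on 4 UMIs in the other cells, and the Xdh ratio of 0.97 on 7 in paired cells.

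Lower in the paired cells than in the other Th1-like cells were Ifitm2, an antiviral membrane protein, at 11.98 CPM against 107 (log2 ratio -3.16, -4.63 to -2.01), and Capg, an actin-capping protein, at 43.9 against 192 (-2.13, -2.82 to -1.50). Il7r had 35.9 against 149 (-2.05, -2.83 to -1.36), Izumo1r, a folate receptor family member of regulatory and follicular cells, 23.95 against 107.9 (-2.17, -3.15 to -1.33) and Esm1 14.0 against 61.0 (-2.13, -3.48 to -1.03). Tnfsf8 had 3 UMIs, a log2 ratio of -3.13 (-5.44 to -1.53). Within the Gzma-led and the Gzmk-led cluster the log2 ratio was -2.67 and -2.43 for Ifitm2, from 1 and 5 UMIs in paired cells. It was -3.11 and -1.32 for Capg, from 6 and 16 UMIs, and -1.17 and -1.61 for Il7r, from 6 and 12. Izumo1r was at -3.22 and -1.34, from 3 and 9 UMIs, and Tnfsf8 at -1.67 and -2.72, from 1 and 2. Esm1 was at -1.11 in the Gzma-led cluster, from 7 UMIs, and had 0 UMIs in the paired cells of the Gzmk-led one. Of 20 type 1 and cytotoxic genes 3 were higher and 3 lower, where 3.38% of 6808 genes were higher and 7.52% lower.

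The paired cells held a share of some library totals well above their 2.29% of T cells. The genes given here were named as highest in these same cells, so a share above 2.29% follows from that choice. The values describe its size only. In the library labelled Cd4cre they gave 18.8% of the Ccl5 UMIs of all T cells, 18.3% of Gzma, 24.4% of Serpinb9, 25.2% of S1pr5 and 10.9% of Ifng. Together with the Trbv20 cells without a Trav UMI they gave 39.6% of Ccl5, 39.3% of Gzma and 50.9% of S1pr5. For all T cells the log2 ratio of Ccl5 CPM, library labelled Cd4cre over control, was 2.58. It was 2.31 without the paired cells and 1.92 also without the Trbv20 cells that lack a Trav UMI. For Gzma the 3 values were 3.54, 3.27 and 2.89, and for Serpinb9 1.62, 1.24 and 0.95. Of the 619 Th1-like cells in that library, 90 were paired cells (14.5%, 11.9 to 17.6), and 199 (32.1%, 28.5 to 36.0) were paired cells or Trbv20 cells without a Trav UMI.

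The 16 paired cells of the control library were of mixed states and none lay in a Th1-like cluster (0 to 20.6%). The Th17-like cluster held 7 and an unnamed one led by Ccl1 held 5, with 2 in the Th2-like cluster, 1 in the cycling-like and 1 in the interferon-responsive one. By cytokine UMI, Il17a was in 7 cells and up to 51 UMIs in 1 cell, Il13 in 7, Ifng in 3, Il17a and Il13 together in 1, and none of these 3 genes in 2. Ccl5 had 1 UMI in each of 2 cells, and Gzma, Gzmk and Serpinb9 had 0 in all 16. Nkg7 went the other way, with a UMI in 7 cells and up to 25 UMIs in 1 cell. The 16 cells, 0.334% of control T cells, gave 0.851% of their Nkg7 UMIs and 2.29% of their Ifng UMIs. Cd4 had a UMI in 14 of 16. The 9 cells with Trbv29 spread over the same cytokines: 4 had Il17a, 3 had Il13 and 2 had Ifng. Over gene lists, 6 of 17 Th17 genes were higher than in other control T cells and 3 lower, and 4 of 20 type 1 and cytotoxic genes higher and 9 lower, where 11.7% of 10873 genes were higher and 15.6% lower. Few UMIs stand behind these counts, 139487 in all 16 cells.

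The paired cells of the 2 libraries were then set side by side. Ccl5 had 14.3 CPM (1.74 to 51.8) from 2 UMIs in the control cells and 18541 in those labelled Cd4cre, a log2 ratio of 10.34 (8.48 to 13.38). Gzma, at 0 UMIs in the control cells, was at least 105-fold higher. Il17a had 1434 CPM in the control cells and 0 UMIs in those labelled Cd4cre, at least 284-fold lower. Il13 had 401 and 84.2 CPM (log2 ratio -2.25, -2.83 to -1.68), and Gata3, the Th2 factor, 287 and 74.1 (-1.95, -2.60 to -1.30). Ifng had 251 and 488 CPM (0.96, 0.45 to 1.51), but 1 control cell held 20 of 35 UMIs, and the ratio was 0.14 with every cell weighted equally. Nfe2l2 had 28.7 and 194 CPM (2.76, 1.36 to 4.66), the same direction as in all T cells. Cd4 had 401 and 490 CPM (0.29, -0.13 to 0.73). The cells share V genes only, so whether any cell of one library is related to a cell of the other was not tested.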

How the data were processed

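Single-cell RNA of lung CD4+ cells was captured with a 10x Genomics 5′ kit, per the labels' protocols, in 1 library per group. The deposited values are raw UMI counts per gene and barcode, made by the authors with Cell Ranger 4.0.0, per the file headers and the submitters' processing notes, on build GRCm38, per those notes. Which annotation they used is not stated in these sources. Gene names come from the deposited feature files.

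Cells were kept with at least 500 genes and under 10% mitochondrial UMIs. UMIs were summed over the cells of a group and divided by the group's total (CPM, with the usual scaling of counts). Genes needed 50 CPM in 1 of the 2 groups, and 20 UMIs in both together for gene lists. Shares have exact Clopper-Pearson intervals, CPM exact Poisson intervals and ratios conditional binomial intervals, all at 95% and covering counting error only. A group at 0 was set to 3 UMIs for bounds. With 1 library per group and cells not being replicates, no test was made and no p-value is given. Shares of cells with a UMI were taken after thinning each cell to 2000 UMIs, which left out 102 of 4308 other T cells and 0 of 101 paired cells in the library labelled Cd4cre.

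T cells of both libraries were clustered together without T cell receptor genes (leidenalg 0.10.2, 2000 variable genes, 30 principal components, 15 neighbours, resolution 1). A cluster was named where at least 3 markers of a type were 2-fold higher and above 10 CPM, and left unnamed where a second type had 5 or more, or as many as the first. Names are rebuilt from markers, not the authors'. Scrublet called 2 and 28 cells as doublets (0.0368% and 0.444%), so it did not work here. Doublets were kept, and an alternative left out 236 and 318 cells of highest score. None of these was a paired cell. A second Trbv gene at 2 UMIs or more was in 4 of 16 and 11 of 101 paired cells, against 15.33% and 11.998% of T cells. Calculations used Python 3.11.15, numpy 2.4.6, scipy 1.17.1 and pandas 2.3.3, and scripts were tested on simulated data.

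The cells and gene lists were chosen with earlier results of these data known. Genes named were the 12 highest and 12 lowest against other T cells by log2 ratio with 10 CPM added, with a UMI in at least 10% of the cells of the higher group; the 6 highest and 6 lowest in the other comparisons; up to 4 by count and 4 by ratio of each list; and a set of lineage genes. Receptor, ribosomal, mitochondrial and sex-linked genes and unnamed gene models were left out of the ranking. Other named genes (Gzmb, Gzmk, Prf1, Eomes, Klrg1, Cxcr3, Pdcd1 among them) were chosen after their values were seen, as were the second V segments, the comparison within Th1-like clusters, its split by cluster and the shares of library totals. That comparison at first held all 101 paired cells; since the comparator lacks the cycling cluster, it was limited to Th1-like clusters on both sides.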

Additional observations from a re-analysis of the deposited data

Results flagged for a closer look

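For 6 of the genes named in the library labelled Cd4cre, the paired cells differed from other T cells in opposite directions in the 2 libraries. The difference between libraries was not tested, and 16 control cells stand behind each control value. Ccl5 had a log2 ratio of 3.54 (3.51 to 3.57) in the library labelled Cd4cre and -4.49 (-7.53 to -2.63) in the control library, where it rested on 2 UMIs. Tnfsf8 had -4.59 and 0.59 (0.13 to 1.02), Ramp1 -4.22 and 1.38 (1.15 to 1.60), and Igfbp7 -4.47 and 1.00 (0.69 to 1.29). Lgals7 had -4.33 and 2.21 (1.94 to 2.47), from 121 UMIs in 10 control cells. Tff1 had -5.86, from 1 UMI, and 1.96 (1.60 to 2.30), from 70 UMIs in 5 control cells.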

How the results depend on the processing

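No paired analysis was possible because there is 1 library for each genotype. Of 498 values recomputed under other settings, 414 stayed within their counting interval or limit, 81 moved beyond it and 3 changed sign. With both V genes at 2 UMIs or more, paired cells were 0.862% of T cells in the library labelled Cd4cre, and 1 of the 16 control cells was left out. With a minimum of 20 CPM, 436 genes were higher and 625 lower than in other T cells, and 579 and 572 against Trbv20 cells with another Trav. With 100 CPM these were 166 and 165, and 168 and 137. Against Trbv20 cells with another Trav, adding those that lack a Trav UMI gave 167 higher and 172 lower. The number of genes compared changes with the CPM limit and the comparator, so these counts are not shares and cannot be ranked against each other. The cell cycle median, -0.07, became 0.22 with 2 UMIs per V gene, 0.0524 without ties and 0.0214 with cells weighted equally; the cause was not tested. The share of paired cells in their main cluster ran from 48.9% to 56.4% and the Trbc1 share from 14.1% to 21.7%, the latter with 2 UMIs per V gene. In the control library the values rest on 16 cells with 139487 UMIs.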
